A study of Mus musculus with 15 samples.

Results

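The genes described here encode the mitochondrial respiratory chain, the ATP synthase, the mitochondrial ribosome and the protein import channels of both mitochondrial membranes. They were chosen by name: a probe entered when its accession belonged to a mouse gene whose current symbol starts with Nduf, Cox, Atp5, Uqcr, Mrpl, Mrps, Timm or Tomm followed by a subunit designation, or is 1 of the genes of succinate dehydrogenase. This rule found 161 genes, measured by 202 probes, among 12254 named genes and 41006 probes, while 208 protein-coding mouse genes have a symbol that fits it. The genes were grouped by symbol alone, so single members may act in another complex. Of the 161 genes, 33 fall under complex I (NADH dehydrogenase), 3 under complex II (succinate dehydrogenase), 5 under complex III (cytochrome bc1) and 21 under complex IV (cytochrome c oxidase), assembly factors with such symbols included. A further 15 fall under the ATP synthase, 41 under the large and 25 under the small subunit of the mitochondrial ribosome, 12 under import across the inner membrane and 6 under import across the outer membrane. Where a gene had several probes, the probe with the highest mean processed signal was used, without regard to group.

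The respiratory chain passes electrons from NADH and succinate to oxygen and pumps protons across the inner mitochondrial membrane, and the ATP synthase uses the resulting gradient to make ATP. Most subunits are encoded in the nucleus and imported through the outer and inner membrane channels, while a few core subunits are encoded by mitochondrial DNA and made on mitochondrial ribosomes, whose proteins are also nuclear products. Oocytes are rich in mitochondria, steroid hormone synthesis starts at the inner membrane, and several cytochrome c oxidase subunits exist as a widely expressed form and a second form typical of heart, skeletal muscle, lung or testis.

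Ovaries of female mice were compared between 3 genotypes of *Foxl2*, which encodes a forkhead transcription factor needed for ovarian follicle formation, at birth and at 7 days after birth (7 dpn). There were 3 newborn arrays each for *Foxl2*-/- (null), *Foxl2*+/- (heterozygous) and *Foxl2*+/+ (wild-type) ovaries, and 2 arrays of each genotype at 7 dpn, 15 arrays in all, with no agent given to any group. The mice were labelled NIHS-BC, a mixed background per the methods, and the null allele was present from conception in all cells. Per the study's methods, RNA of individual animals was used for newborns and pooled animals for 7 dpn, so the 7 dpn values hold less of the spread between animals. Each array set ovary RNA, in the green channel, against a reference pooled from mouse cell lines in the red channel, with no dye swap. Values are log2 ratios of ovary to reference, on which 1 unit is a doubling, and they are compared only between arrays for the same probe.

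All 161 genes were well above background on all 15 arrays and 156 had a usable value on every array. In each array, 93.2 to 96.5% of all probes were well above background. Precision is set by how few arrays each group has. The ovary to reference ratio averaged above 0 for 124 of the 161 genes, with a median of 0.38 on the log2 scale. The range of a gene over the 15 arrays had a median of 0.42 log2 units, against 0.50 for all probes. It exceeded 1 in 2 of the 161 genes (1.24%), against 18.2% of all probes, and those genes were *Cox7a1* and *Ndufa1*. Most differences described below are small.

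The newborn wild-type array 1 stood apart from the others. *Ucp1*, the uncoupling protein that defines brown fat, had a log2 ratio of 4.70 on it and 0.10 to 1.19 on the other 14 arrays. The fat genes *Cidea* and *Adipoq* had log2 ratios of 3.92 and 3.55 there, against 0.68 to 2.27 and 0.38 to 0.74 on the other 8 newborn arrays. At 7 dpn they ranged from 1.03 to 3.55 and from 3.16 to 3.76, so neither was high on that array alone. Correlations over all probes were 0.894 and 0.910 between this array and its replicates, and 0.932 to 0.964 between the other replicates. Skeletal muscle genes were high on another newborn wild-type array: *Acta1*, skeletal muscle actin, had a log2 ratio of 3.74 on array 2 and 1.40 on array 3, against -2.30 to -0.36 on the other 13, and 7 of 10 muscle markers were highest on array 2. Counts of called genes in comparisons with newborn wild-type ovaries, and the values of *Cox7a1*, are given with and without array 1 below, and the part of fat or muscle RNA in them was not tested. The *Foxl2* probe gave log2 ratios between -0.36 and -0.20 on all 15 arrays whatever the genotype, so it does not check the labels. *Sox9*, a testis-determining gene, was higher by 1.71 log2 units (SE 0.13, adjusted p = 7.57e-05, limma) in 7 dpn null than in wild-type ovaries.

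The probes of the subunits with tissue-restricted forms were compared with those of their widely expressed counterparts, since a shared stretch could carry signal from one to the other. Both pairs that matter below were measured by probes of 60 bases that share no run longer than 6 bases. The first 30 bases of each are given, in lower case, as the files hold them.
Cox7a1 probe: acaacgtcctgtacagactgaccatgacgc
Cox7a2 probe: ctttggggatcaatatttattgatgtgtat
Cox6b2 probe: atgaccttgcacttgagcgctgctcccctg
Cox6b1 probe: ctttaggagtcaggatggctgaagacatca

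Promoters were available for 138 of the 161 genes, as 147 sequences of 300 bases each, from 250 bases before to 50 bases after the start (RefSeq, build GRCm38.p6). Short motifs that occur often in promoters of mitochondrial genes, and a motif of forkhead factors, the family of *Foxl2*, were searched on both strands. Matches were compared with all 32851 promoters of the same length. The NRF1 motif, that of the nuclear respiratory factor, was in 17.0% of the members' promoters and in 4.60% of all promoters. CCGGAAG, a motif of ETS factors such as GABP, was in 32.0% against 8.86%, and AAGATGGC, a motif of YY1, was in 14.3% against 2.75%. AAGGTCA, a motif of estrogen-related receptors, was in 8.84% against 4.72%, while TGTTTAC, a forkhead motif, was in 2.04% against 3.65%. None of these motifs contains another, although matches may overlap. These are matches of letters and not measured binding sites.

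Promoters of 6 of the genes named below are shown 5′ to 3′ along the gene's strand, with matches to the NRF1, ETS, YY1, estrogen-related receptor and forkhead motifs in capitals. The first 4 belong to genes that were higher in 7 dpn null ovaries and the last 2 to genes that were lower at 7 dpn than at birth. *Cox7a1* lies at chr7:30183921-30184220 (plus strand) and *Cox6b2* at chr7:4753045-4753344 (minus strand), and neither window holds a match. *Mrpl35*, at chr6:71823735-71824034 (minus strand), holds a YY1 match, and *Ndufaf4*, at chr4:24897833-24898132 (plus strand), an NRF1 match. *Tomm70a*, at chr16:57121464-57121763 (plus strand), and *Mrpl43*, at chr19:45006393-45006692 (minus strand), hold 2 ETS matches each. Other genes lower at 7 dpn in all 3 genotypes are not shown. Of these, *Ndufa1*, which fell most, holds no match, *Atp5md* holds 1 ETS match and *Uqcrc2* had no promoter available.
Cox7a1 promoter: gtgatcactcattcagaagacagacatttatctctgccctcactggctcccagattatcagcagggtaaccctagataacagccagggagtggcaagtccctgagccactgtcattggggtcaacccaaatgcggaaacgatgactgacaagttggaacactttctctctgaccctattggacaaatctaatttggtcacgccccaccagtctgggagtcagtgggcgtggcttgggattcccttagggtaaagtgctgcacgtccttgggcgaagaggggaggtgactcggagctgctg
Cox6b2 promoter: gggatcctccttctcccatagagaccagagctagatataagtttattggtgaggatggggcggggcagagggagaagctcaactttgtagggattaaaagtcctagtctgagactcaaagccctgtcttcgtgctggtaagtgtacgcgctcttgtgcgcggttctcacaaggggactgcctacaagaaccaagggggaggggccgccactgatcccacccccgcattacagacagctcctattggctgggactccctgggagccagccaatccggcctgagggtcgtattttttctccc
Mrpl35 promoter: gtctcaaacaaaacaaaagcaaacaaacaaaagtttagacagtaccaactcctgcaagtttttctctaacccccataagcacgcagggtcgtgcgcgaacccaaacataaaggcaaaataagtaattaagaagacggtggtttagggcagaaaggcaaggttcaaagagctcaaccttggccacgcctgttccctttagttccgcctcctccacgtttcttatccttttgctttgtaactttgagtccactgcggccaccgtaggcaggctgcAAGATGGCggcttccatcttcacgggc
Ndufaf4 promoter: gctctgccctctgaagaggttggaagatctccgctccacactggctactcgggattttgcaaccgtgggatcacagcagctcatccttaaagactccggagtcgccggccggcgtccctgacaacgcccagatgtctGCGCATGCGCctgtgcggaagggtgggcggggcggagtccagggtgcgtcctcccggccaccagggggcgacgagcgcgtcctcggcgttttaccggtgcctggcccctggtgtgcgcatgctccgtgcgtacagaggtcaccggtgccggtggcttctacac
Tomm70a promoter: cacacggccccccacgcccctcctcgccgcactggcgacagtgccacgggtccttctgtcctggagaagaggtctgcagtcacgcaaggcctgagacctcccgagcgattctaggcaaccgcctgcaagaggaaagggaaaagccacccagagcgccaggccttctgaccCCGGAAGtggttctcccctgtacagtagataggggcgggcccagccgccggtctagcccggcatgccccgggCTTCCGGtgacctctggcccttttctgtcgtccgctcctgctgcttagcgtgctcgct
Mrpl43 promoter: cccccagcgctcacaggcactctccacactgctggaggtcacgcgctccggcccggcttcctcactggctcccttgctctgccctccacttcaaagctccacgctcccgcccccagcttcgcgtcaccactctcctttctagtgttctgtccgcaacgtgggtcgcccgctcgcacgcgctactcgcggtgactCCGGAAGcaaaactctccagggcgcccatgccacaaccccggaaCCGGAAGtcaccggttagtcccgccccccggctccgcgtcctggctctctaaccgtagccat

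The first question was which of these genes differ in ovaries that lack *Foxl2* at 7 dpn. In null against wild-type ovaries, 7 of the 161 genes rose and none fell at an adjusted p under 0.05, which is 4.35% of the set, beside 5.53% of all probes in either direction (limma, Benjamini-Hochberg over all probes; 2.77% higher and 2.76% lower). The share is near the background, and what stands out is a single gene. *Cox7a1*, the heart and muscle form of a cytochrome c oxidase subunit, rose 3.83-fold, and each of the other 160 genes differed by less than 0.5 log2 units. The median difference over the set was 0.022 log2 units against 0.015 over all probes. At an unadjusted p under 0.05, 35 genes (21.7%) were listed, 23 higher and 12 lower in null ovaries, beside 17.4% of all probes. The samples are whole ovaries, so a change in the share of a cell type cannot be told apart from a change of RNA per cell. Markers of the ovarian cell types moved with genotype at this age. Mean log2 ratios over 10 granulosa markers were 0.69 to 0.76 in null against 1.85 to 2.09 in wild-type ovaries, and over 6 theca and steroidogenic markers -0.03 to 0.20 against 1.34 to 1.86. Over 5 markers of testis supporting cells they were 1.33 or more in null against 1.00 or less in wild-type ovaries. Over 12 oocyte markers they were 3.30 to 3.40 in null, 3.54 to 3.76 in heterozygous and 3.61 to 3.91 in wild-type ovaries. The part of these shifts in the differences below was not tested.

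*Cox7a1* had log2 ratios of 2.37 and 2.38 in 7 dpn null ovaries, 0.75 and 0.61 in heterozygous and 0.39 and 0.50 in wild-type ovaries. Both null arrays were above all others of that age. In newborns the log2 ratios were 1.43, 1.53 and 1.45 in null, 0.74, 0.93 and 0.77 in heterozygous and 2.25, 0.73 and 0.86 in wild-type ovaries, the 2.25 being array 1 with the fat genes. Null newborns were thus above every heterozygous newborn and above 2 of the 3 wild-type newborns. At 7 dpn the log2 difference was 1.94 (SE 0.37, adjusted p = 0.0109, limma, n = 2 against 2) for null against wild-type and 1.70 (SE 0.37, adjusted p = 0.0381) for null against heterozygous. Heterozygous and wild-type ovaries differed by 0.24 (SE 0.37, adjusted p = 0.970).

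The spread in that model includes newborn wild-type array 1. Without this array, *Cox7a1* differed by 1.98 (SE 0.08, adjusted p = 3.19e-06, limma) between null and wild-type and by 1.70 (SE 0.08, adjusted p = 1.13e-05) between null and heterozygous ovaries at 7 dpn. At birth the difference between null and wild-type was 0.19 (SE 0.30, adjusted p = 0.833) with all arrays and 0.67 (SE 0.07, adjusted p = 0.00162) without array 1. Against heterozygous newborns it was 0.66 (adjusted p = 0.572) with all arrays and 0.63 (SE 0.07, adjusted p = 0.00329) without array 1. The null difference was larger at 7 dpn than at birth by 1.74 (SE 0.47, adjusted p = 0.198) with all arrays and by 1.31 (SE 0.11, adjusted p = 8.29e-04) without array 1, so that call rests on leaving the array out. In the 7 dpn comparison with wild-type, leaving out any 1 of the 4 arrays compared ended the call of *Cox7a1*, with an adjusted p of at most 0.0784 and a log2 difference of 1.83 or more. Against heterozygous ovaries, leaving out any 1 of the 4 arrays compared ended it as well, with an adjusted p of at most 0.236 and a log2 difference of 1.62 or more, and the call held in 6 of 10 alternatives that kept those arrays.

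*Cox7a1* is also expressed in muscle and brown fat, so the markers of those tissues are given beside it. *Cidea*, a lipid droplet protein abundant in brown fat, had log2 ratios of 3.43 and 3.55 in 7 dpn null ovaries, 1.03 and 2.08 in heterozygous and 1.42 and 1.67 in wild-type ovaries, and of 1.85, 2.27 and 2.24 in newborn null, 0.70, 0.72 and 0.80 in newborn heterozygous and 3.92, 0.68 and 1.01 in newborn wild-type ovaries. Its highest value outside the null groups at 7 dpn was thus below both null arrays. The null against wild-type difference of *Cidea* at 7 dpn was 1.94 (SE 0.80, adjusted p = 0.232) with all arrays and 2.03 (SE 0.27, adjusted p = 0.00142, limma) without newborn wild-type array 1. At birth the null against wild-type difference of *Cidea* depended on the wild-type array left out: it was 0.25 (SE 0.66, adjusted p = 0.908) with all arrays, 1.29 (SE 0.24, adjusted p = 0.0126) without array 1 and -0.36 (SE 0.64, adjusted p = 0.902) without array 2. Against heterozygous newborns it was 1.38 (SE 0.66, adjusted p = 0.604) with all arrays and 1.40 (SE 0.22, adjusted p = 0.0239) without wild-type array 1.

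*Ucp1* did not share that pattern: its log2 ratios at 7 dpn were 0.57 and 0.58 in null, 0.20 and 0.10 in heterozygous and 0.98 and 0.28 in wild-type ovaries. Null and wild-type overlapped, with a difference of -0.05 (adjusted p = 0.992) with all arrays and of -0.01 (adjusted p = 0.994) without array 1. With all arrays, none of 10 muscle, 5 brown fat and 4 white fat markers passed the test in 7 dpn null against wild-type ovaries. *Cidea* passed without newborn wild-type array 1, as given above. The mean log2 ratio over the 5 brown fat markers was 1.52 to 1.59 in 7 dpn null, 0.97 to 1.07 in heterozygous and 1.26 to 1.48 in wild-type ovaries, and 2.60 on newborn wild-type array 1. Over the 10 muscle markers it was -0.44 to -0.32 in 7 dpn null and -0.52 to -0.37 in 7 dpn wild-type ovaries. *Cox6a2* and *Cox8b*, the other heart and muscle forms of cytochrome c oxidase subunits, had null against wild-type differences of -0.04 (adjusted p = 0.939) and 0.07 (adjusted p = 0.918).

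**Figure D1:**
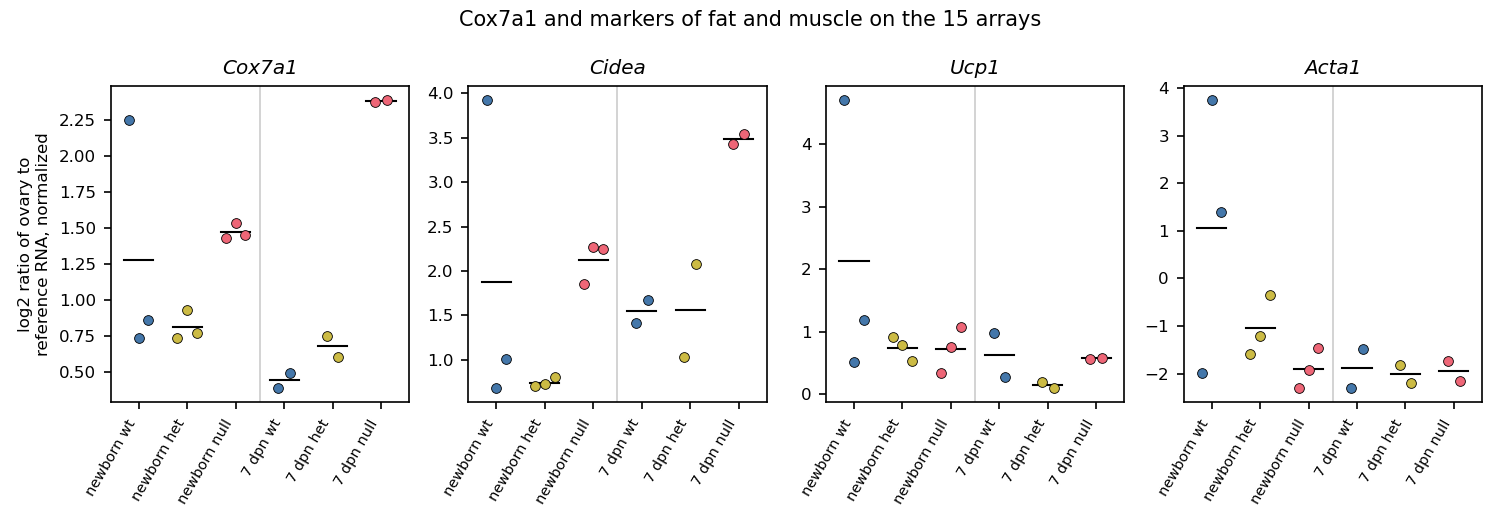
Log2 ratios of ovary to reference (y axis) on each of the 15 arrays for *Cox7a1*, the brown fat genes *Cidea* and *Ucp1* and the muscle gene *Acta1*, with arrays grouped by age and genotype (x axis), points coloured by genotype and a horizontal bar at each group mean. *Cox7a1* and *Cidea* are high in 7 dpn null ovaries and on newborn wild-type array 1, while *Ucp1* is high on that array only and *Acta1* on newborn wild-type arrays 2 and 3.

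The other genes that rose in 7 dpn null ovaries changed by less. In complex IV, *Cox6b2*, the testis form of another cytochrome c oxidase subunit, had log2 ratios of 1.23 and 1.34 in null, 0.92 and 0.81 in heterozygous and 0.88 and 0.71 in wild-type ovaries. Both null arrays were above the rest, and the difference from wild-type was 0.49 (SE 0.10, adjusted p = 0.0151, limma). *Cox6c*, a small structural subunit, had log2 ratios of 0.85 and 0.86 in null, 0.55 and 0.53 in heterozygous and 0.64 and 0.55 in wild-type ovaries. It rose by 0.25 (SE 0.06, adjusted p = 0.0423) against wild-type and by 0.31 (SE 0.06, adjusted p = 0.0314) against heterozygous ovaries. These calls held in 3 of 10 and 6 of 10 alternatives that kept every array compared and the threshold of 0.05, with adjusted p up to 0.174 and 0.398. A second probe of *Cox6c* gave 0.22 against wild-type (adjusted p = 0.288). *Cox14*, an assembly factor that acts on the core subunit made in the mitochondrion, had log2 ratios of 0.33 and 0.33 in null, 0.24 and 0.22 in heterozygous and 0.11 and 0.09 in wild-type ovaries. The genotypes did not overlap, and null exceeded wild-type by 0.23 (SE 0.05, adjusted p = 0.0187), with heterozygous ovaries between them.

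In complex I, *Ndufa5*, an accessory subunit, had log2 ratios of 1.18 and 1.20 in null, 1.01 and 0.76 in heterozygous and 0.79 and 0.90 in wild-type ovaries. The assembly factor *Ndufaf4* had log2 ratios of 2.21 and 2.25 in null, 2.11 and 2.15 in heterozygous and 1.92 and 1.85 in wild-type ovaries. Null arrays were highest for both genes, and they exceeded wild-type by 0.35 (SE 0.09, adjusted p = 0.0420) for *Ndufa5* and 0.34 (SE 0.09, adjusted p = 0.0467) for *Ndufaf4*. In the mitochondrial ribosome only *Mrpl35*, a protein of the large subunit, passed the test, with log2 ratios of 1.00 and 0.93 in null, 0.73 and 0.69 in heterozygous and 0.65 and 0.47 in wild-type ovaries and a difference of 0.41 (SE 0.10, adjusted p = 0.0413). The genes next in order of p did not pass: *Cox7c*, a subunit of complex IV, at -0.22 (adjusted p = 0.0696), *Mrps18a* at 0.32 (adjusted p = 0.0709) and *Ndufa13* at 0.29 (adjusted p = 0.0751).

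These calls rested on few arrays, and with 2 arrays in a group it is common that groups do not overlap. Leaving out null array 1, null array 2 or wild-type array 2 at 7 dpn left 0 of the 161 genes called, and leaving out wild-type array 1 left 5. Without newborn wild-type array 1, 7 genes rose and 2 fell, beside 7.08% of all probes: *Ndufa1* then joined the higher genes, *Ndufaf4* left them, and *Cox7c* and *Mrpl53* fell. Fitted on the 7 dpn arrays alone, 2 of the 161 genes were called, and on the ovary channel without the reference, 1.

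**Figure D2:**
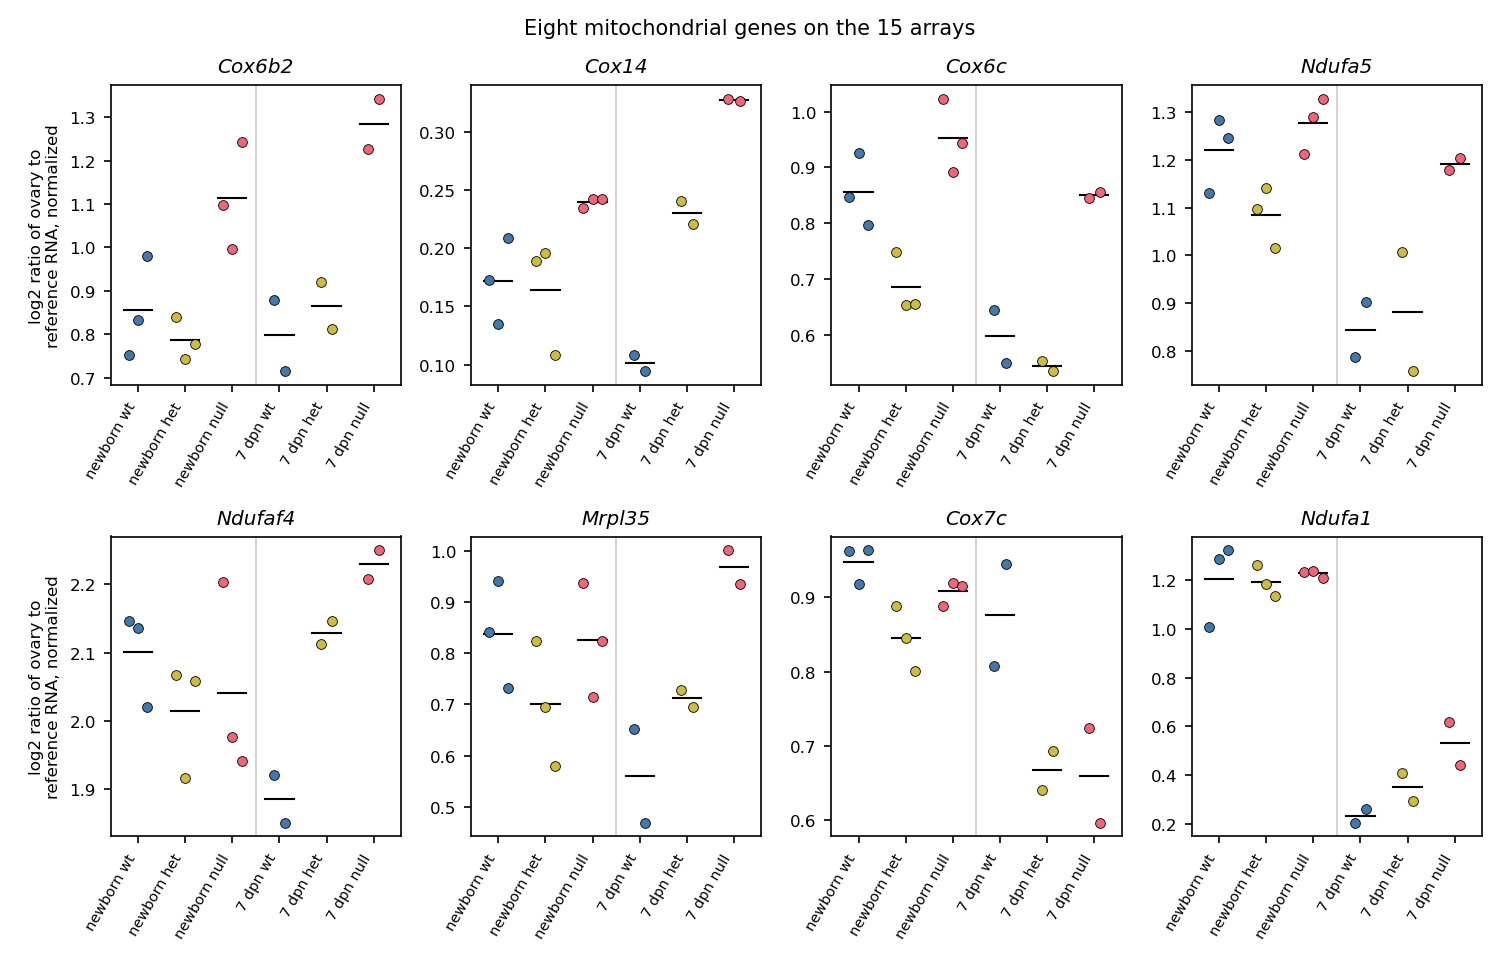
Log2 ratios of ovary to reference (y axis) on each of the 15 arrays for *Cox6b2*, *Cox14*, *Cox6c*, *Ndufa5*, *Ndufaf4*, *Mrpl35*, *Cox7c* and *Ndufa1*, with arrays grouped by age and genotype (x axis), points coloured by genotype and a bar at each group mean. The first 6 genes are higher in 7 dpn null than in 7 dpn wild-type ovaries, by 0.23 to 0.49 log2 units, and *Ndufa1* is lower in every 7 dpn group than in newborns.

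By complex, null against wild-type differences at 7 dpn were centred near 0. The median was 0.07 log2 units over the 33 genes of complex I, 0.13 over the 3 of complex II, 0.06 over the 5 of complex III, 0.02 over the 21 of complex IV and 0.02 over the 15 of the ATP synthase. The medians were -0.00 over the large and 0.01 over the small subunit of the mitochondrial ribosome, and 0.02 for both inner and outer membrane import. Of the 7 genes that rose, 4 belong to complex IV, 2 to complex I and 1 to the large ribosomal subunit. The widely expressed partners of the restricted subunits did not pass: *Cox7a2* at -0.10 (adjusted p = 0.645), *Cox6b1* at 0.26 (adjusted p = 0.156), *Cox6a1* at -0.16 (adjusted p = 0.317) and *Cox8a* at 0.29 (adjusted p = 0.146). The restricted forms *Cox4i2* and *Cox7b2* were at 0.00 (adjusted p = 0.999) and -0.09 (adjusted p = 0.807), and *Cox4i1*, the wide form of the former, at 0.14 (adjusted p = 0.325).

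Null against heterozygous ovaries at 7 dpn gave 2 genes that rose, *Cox6c* and *Cox7a1*, and none that fell, beside 2.20% of all probes (1.04% higher and 1.15% lower). The median difference over the set was 0.080 log2 units, against 0.013 over all probes, and 131 of 161 genes (81.4%) were above 0, against 54.6% of all probes. In complex I 30 of 33 genes were above 0 with a median of 0.12, in complex III all 5 with 0.13 and in the ATP synthase 14 of 15 with 0.07. In the mitochondrial ribosome 31 of 41 large and 17 of 25 small subunit genes were above 0. The median log2 ratio over the set was 0.40 and 0.38 on the null arrays, 0.32 and 0.27 on the heterozygous and 0.29 and 0.38 on the wild-type arrays, so null lay above heterozygous ovaries and wild-type ovaries spanned most of that range. Members share the same 4 arrays, and the shift of the set was not tested. *Cox6b2* was at 0.42 (adjusted p = 0.0563). Without newborn wild-type array 1, *Cox20*, an assembly factor of complex IV, also rose, by 0.32 (adjusted p = 0.0439), making 3 genes beside 3.13% of all probes.

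Heterozygous against wild-type ovaries at 7 dpn gave 0 called genes with limma, beside 0.0463% of all probes, and 23 genes (14.3%) at an unadjusted p under 0.05, 5 higher and 18 lower, beside 8.64% of all probes. The set's median was -0.042 log2 units, against 0.003 over all probes, with 107 of 161 genes below 0. The lowest p belonged to *Cox7c*, with log2 ratios of 0.64 and 0.69 in heterozygous and 0.81 and 0.95 in wild-type ovaries. Those groups did not overlap, and the difference was -0.21 (adjusted p = 0.297). Groups of 2 arrays often do not overlap: in null against heterozygous ovaries *Mrpl50* did not, at a difference of 0.04 (unadjusted p = 0.711, limma). This comparison shares the wild-type arrays with that of null ovaries and the heterozygous arrays with the other.

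**Figure D3:**
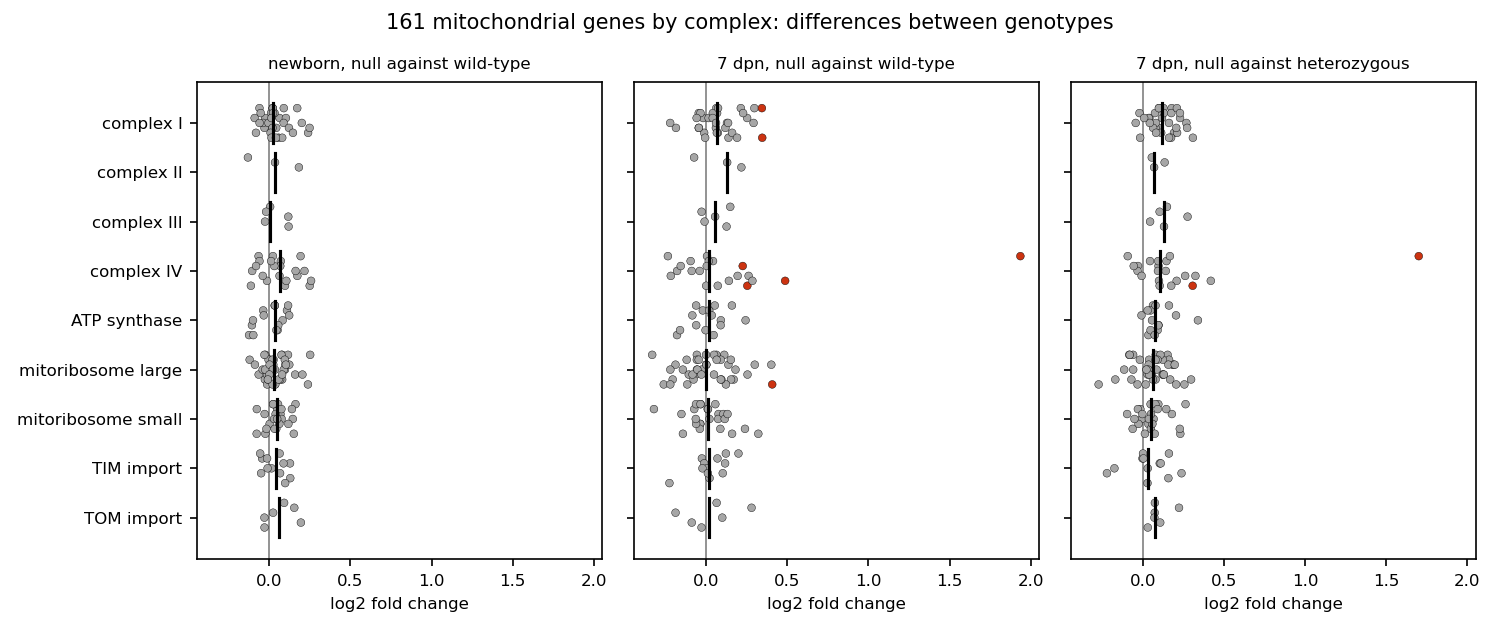
Log2 differences (x axis) of the 161 genes, 1 point a gene, by complex or function (y axis, TIM and TOM standing for inner and outer membrane import), for newborn null against wild-type, 7 dpn null against wild-type and 7 dpn null against heterozygous ovaries, with genes called higher in red, called lower in blue and a bar at each median. *Cox7a1* in complex IV lies alone near 1.94 and 1.70 in the 7 dpn panels, and the newborn panel has no called gene.

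At birth, 0 of the 161 genes were called in any comparison of genotypes with limma. Of all probes, 1.67% were called in null against wild-type, 0.398% in null against heterozygous and 0.0293% in heterozygous against wild-type. At an unadjusted p under 0.05, null against wild-type had 12 of the 161 genes (7.45%), beside 14.1% of all probes. Null against heterozygous had 18 (11.2%), beside 8.72%, and heterozygous against wild-type 25 (15.5%), beside 13.4%. *Cox6c* had log2 ratios of 1.02, 0.89 and 0.94 in newborn null, 0.75, 0.65 and 0.66 in heterozygous and 0.85, 0.93 and 0.80 in wild-type ovaries. Null and heterozygous newborns did not overlap for it, null and wild-type did, and null exceeded heterozygous by 0.27 (SE 0.05, adjusted p = 0.0653). *Cox6b2* had log2 ratios of 1.10, 1.00 and 1.24 in newborn null ovaries and of 0.74 to 0.98 in the other 6 newborns. The null newborns were above all of these, and the differences were 0.26 (adjusted p = 0.177) against wild-type and 0.33 (adjusted p = 0.148) against heterozygous ovaries.

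The counts at birth depend on newborn wild-type array 1. Without it, 7 genes rose in null against wild-type newborns and none fell, beside 7.22% of all probes. Those were *Cox7a1*, *Cox4i2* (the lung form of a cytochrome c oxidase subunit, 0.34, adjusted p = 0.0123), the assembly factors *Cox20* and *Ndufaf1*, and the ribosomal proteins *Mrpl19*, *Mrpl40* and *Mrps30*. In heterozygous against wild-type newborns 6 rose and 1 fell, beside 6.52%, and in null against heterozygous newborns only *Cox7a1* rose, beside 0.595%. Wild-type arrays 2 and 3, which then stand for the wild-type newborns, are those with muscle genes, and without array 2 in place of array 1 no member was called in null against wild-type, beside 0.936% of all probes, or in heterozygous against wild-type, beside 0.0171%.

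The test of whether the null difference changed between birth and 7 dpn gave 0 of 161 genes with limma, beside 0.188% of all probes, and 16 (9.94%) at an unadjusted p under 0.05, beside 10.5%. That for heterozygous ovaries gave 0 as well, beside 0.00244%, and 15 (9.32%) at an unadjusted p under 0.05, beside 7.45%. After *Cox7a1*, the lowest p values for the null belonged to *Ndufaf4*, at 0.40 (adjusted p = 0.211), and *Mrpl35*, at 0.42 (adjusted p = 0.247). Without newborn wild-type array 1, 3 genes passed for the null, beside 3.24% of all probes: *Cox7a1*, *Ndufa1* at 0.42 (adjusted p = 0.0427) and *Mrpl53* at -0.43 (adjusted p = 0.0301). For heterozygous ovaries *Ndufaf1* passed, beside 1.71%. Without array 2 in place of array 1, no member passed in either test, and 16 of all probes (0.039%) did for the null.

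The second question was which of these genes differ between birth and 7 dpn. Arrays of newborns and of 7 dpn ovaries were feature-extracted on different days, and newborn RNA came from single animals while 7 dpn RNA was pooled, so age, extraction day and pooling cannot be told apart. Fat markers moved with age as well: the mean log2 ratio over 4 white fat markers was 0.32 to 0.67 on the newborn arrays other than wild-type array 1, where it was 2.59, and 2.29 to 2.63 on the 7 dpn arrays. Markers of ovarian cells were measured at both ages too, and the ages overlapped for theca and oocyte markers in null ovaries. The mean over 10 granulosa markers was 0.89 to 1.46 at birth and 1.85 to 2.09 at 7 dpn in wild-type, 0.70 to 0.74 and 1.19 to 1.25 in heterozygous, and 0.59 to 0.64 and 0.69 to 0.76 in null ovaries. Over 6 theca and steroidogenic markers it was 0.47 to 1.02 at birth and 1.34 to 1.86 at 7 dpn in wild-type, 0.29 to 0.36 and 0.98 to 1.20 in heterozygous, and -0.14 to 0.37 and -0.03 to 0.20 in null ovaries. Over 5 markers of testis supporting cells it was 0.13 to 0.50 and 0.76 to 1.00 in wild-type, 0.32 to 0.36 and 0.91 to 0.95 in heterozygous, and 0.68 to 0.92 and 1.33 or more in null ovaries. Over 12 oocyte markers it was 3.54 to 3.59 and 3.61 to 3.91 in wild-type, 3.33 to 3.38 and 3.54 to 3.76 in heterozygous, and 3.32 to 3.39 and 3.30 to 3.40 in null ovaries. The part of these markers in the differences with age was not tested. From birth to 7 dpn 20 genes fell and 5 rose in wild-type ovaries, beside 8.61% of all probes called (3.81% lower and 4.80% higher). In heterozygous ovaries 22 fell and 3 rose, beside 8.38% (4.48% lower and 3.90% higher), and in null ovaries 7 fell and none rose, beside 3.22% (1.60% lower and 1.62% higher). The set's median difference was -0.05 in wild-type, -0.09 in heterozygous and -0.04 in null ovaries, against -0.02, -0.02 and -0.01 over all probes. These medians are within 0.1 of 0, and in wild-type and null ovaries their sign turned under other scalings given in the closing section. On the ovary channel without the reference, the 25, 25 and 7 calls became 2, 1 and 0. The 3 comparisons share no arrays, but they share the normalisation, 1 estimate of spread and the same split by extraction day and pooling. In all of them 5 genes fell (3.11%, against 0.932% of all probes), 14 fell in at least 2 (8.70%, against 2.66%), and 72 were below 0 in all (44.7%, against 27.9%).

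*Ndufa1*, a small accessory subunit of complex I encoded on the X chromosome, fell most. Its log2 ratios were 1.23, 1.24 and 1.21 in newborn null, 1.26, 1.19 and 1.13 in heterozygous and 1.01, 1.29 and 1.32 in wild-type ovaries. At 7 dpn they were 0.62 and 0.44 in null, 0.41 and 0.29 in heterozygous and 0.20 and 0.26 in wild-type ovaries. No 7 dpn array reached any newborn array. The log2 differences were -0.97 in wild-type (SE 0.09, adjusted p = 8.11e-04), -0.84 in heterozygous (SE 0.09, adjusted p = 6.30e-04) and -0.70 in null ovaries (SE 0.09, adjusted p = 0.00398, limma).

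*Tomm70a*, an outer membrane receptor for carrier proteins, had log2 ratios between -0.22 and 0.04 in the 9 newborns and between -0.65 and -0.53 at 7 dpn. It fell by 0.40 (SE 0.06, adjusted p = 0.00448) in wild-type, 0.61 (SE 0.06, adjusted p = 4.69e-04) in heterozygous and 0.40 (SE 0.06, adjusted p = 0.00745) in null ovaries. *Uqcrc2*, a core subunit of complex III, ranged from 0.65 to 0.77 in newborns and from 0.41 to 0.49 at 7 dpn. The ages did not overlap for either gene, and *Uqcrc2* fell by 0.25 (adjusted p = 0.00728), 0.24 (adjusted p = 0.00582) and 0.23 (adjusted p = 0.0174) in the same order of genotypes.

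*Mrpl43*, a protein of the large ribosomal subunit, ranged from 0.04 to 0.42 in newborns and from -0.32 to -0.08 at 7 dpn. It fell by 0.27 (adjusted p = 0.0389) in wild-type, 0.53 (adjusted p = 0.00174) in heterozygous and 0.39 (adjusted p = 0.0172) in null ovaries. *Atp5md*, a small membrane subunit of the ATP synthase, ranged from -0.60 to -0.39 in newborns and from -0.90 to -0.68 at 7 dpn. The ages did not overlap for these genes, and *Atp5md* fell by 0.34 (adjusted p = 0.0166), 0.33 (adjusted p = 0.0173) and 0.30 (adjusted p = 0.0473).

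**Figure D4:**
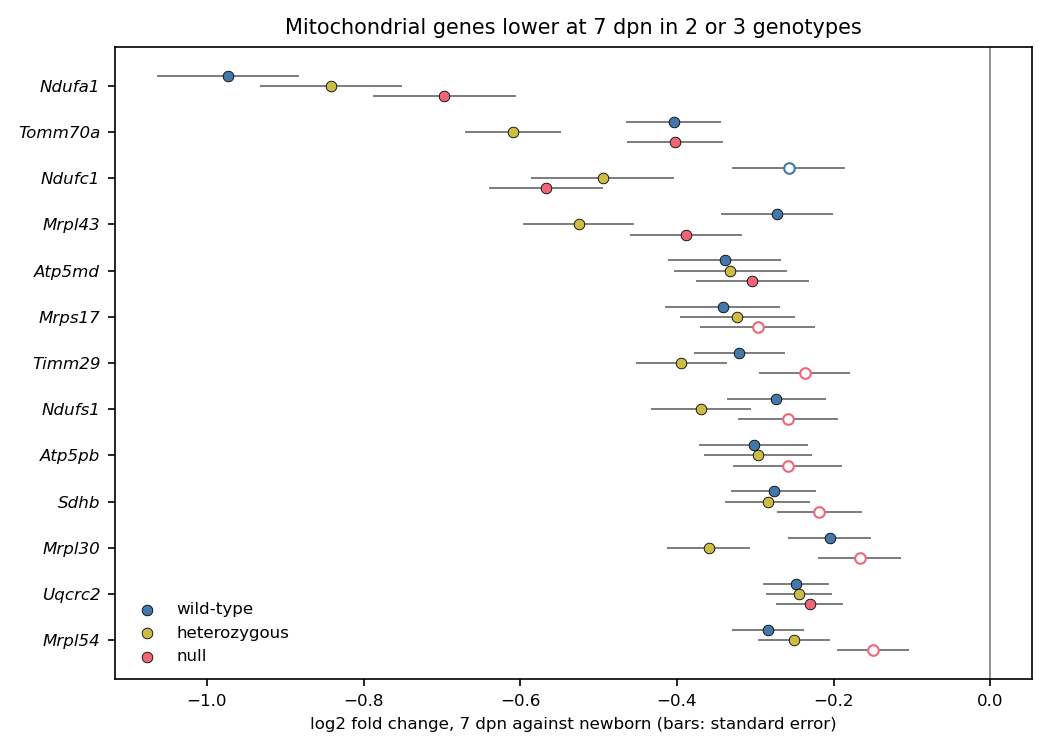
Log2 differences of 7 dpn against newborn ovaries (x axis, with SE bars) for 13 genes that fell in at least 2 genotypes (y axis), coloured by genotype, with filled points for calls at an adjusted p under 0.05 and open points otherwise. *Ndufa1* lies farthest from 0 in wild-type, heterozygous and null ovaries alike, at -0.97, -0.84 and -0.70.

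Of the other genes that fell in 2 genotypes, *Ndufs1*, a core subunit of complex I, and *Sdhb*, the iron-sulfur subunit of succinate dehydrogenase, fell in wild-type and heterozygous ovaries. *Ndufs1* fell by 0.27 (adjusted p = 0.0242) in wild-type and 0.37 (adjusted p = 0.00565) in heterozygous ovaries. *Sdhb* fell by 0.28 in both (adjusted p = 0.0122 and 0.00915). *Timm29*, a part of an inner membrane insertion complex, fell by 0.32 (adjusted p = 0.00888) and 0.39 (adjusted p = 0.00250). *Atp5pb*, *Mrpl30*, *Mrpl54* and *Mrps17* fell in the same genotypes, by 0.20 to 0.36. *Ndufc1*, an accessory subunit of complex I, fell by 0.49 (adjusted p = 0.00957) in heterozygous and 0.57 (adjusted p = 0.00457) in null ovaries; heterozygous array 2 at 7 dpn gave no usable value for it and was dropped by the fit. That arm is thus 1 array, assumed to vary like the other groups, and the heterozygous call of *Ndufc1* has no replicate check of its own. Genes that fell in 1 genotype were *Tomm6*, *Ndufa5*, *Uqcr11*, *Atp5l*, *Cox4i1*, *Cox6c* and *Ndufs7* in wild-type ovaries, by 0.26 to 0.41. In heterozygous ovaries they were *Mrps5*, *Cox11*, *Ndufaf1*, *Mrpl11*, *Ndufb9*, *Mrpl2*, *Mrps28* and *Mrpl46*, by 0.25 to 0.42, and in null ovaries *Cox7c*, by 0.25. A call in 1 genotype does not show a difference between genotypes.

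Genes that rose with age were fewer. *Timm21*, a part of the inner membrane channel, ranged from 0.10 to 0.44 in newborns and from 0.44 to 0.72 at 7 dpn. It rose by 0.44 (adjusted p = 0.0164) in wild-type and 0.34 (adjusted p = 0.0459) in heterozygous ovaries. *Mrpl34*, of the large ribosomal subunit, rose by 0.31 (adjusted p = 0.0252) and 0.28 (adjusted p = 0.0369) in the same genotypes. *Mrpl53*, *Cox4i2* and *Mrps12* rose in wild-type ovaries, by 0.48, 0.39 and 0.33, and *Timm8b* in heterozygous ovaries, by 0.29. All 25 genes called with age in wild-type ovaries were also called without newborn array 1, but 13 of them without newborn array 2 and 16 without newborn array 3. Without array 1, *Ndufa1* was at -1.11 (adjusted p = 2.42e-05).

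By complex, all 5 genes of complex III were below 0 in every genotype, with medians of -0.17 in wild-type, -0.21 in heterozygous and -0.23 in null ovaries. The 6 genes of outer membrane import had medians of -0.27, -0.32 and -0.22. Complex I was lower in 22 of 33 genes in wild-type, 25 in heterozygous and 20 in null ovaries, with medians of -0.10, -0.13 and -0.05. The ribosomal subunits and inner membrane import stayed near 0, with medians between -0.05 and 0.06. Without newborn wild-type array 1, the counts were 29 lower and 21 higher in wild-type, beside 18.7% of all probes, 22 and 4 in heterozygous, beside 10.4%, and 15 and 3 in null ovaries, beside 5.09%. *Cox7a1* was then among the genes that rose in null ovaries, by 0.90 (SE 0.07, adjusted p = 4.97e-04), and among those that fell in wild-type ovaries, by 0.40 (adjusted p = 0.00703), whereas with all arrays its differences were 0.91 (adjusted p = 0.206) and -0.84 (adjusted p = 0.154).

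**Figure D5:**
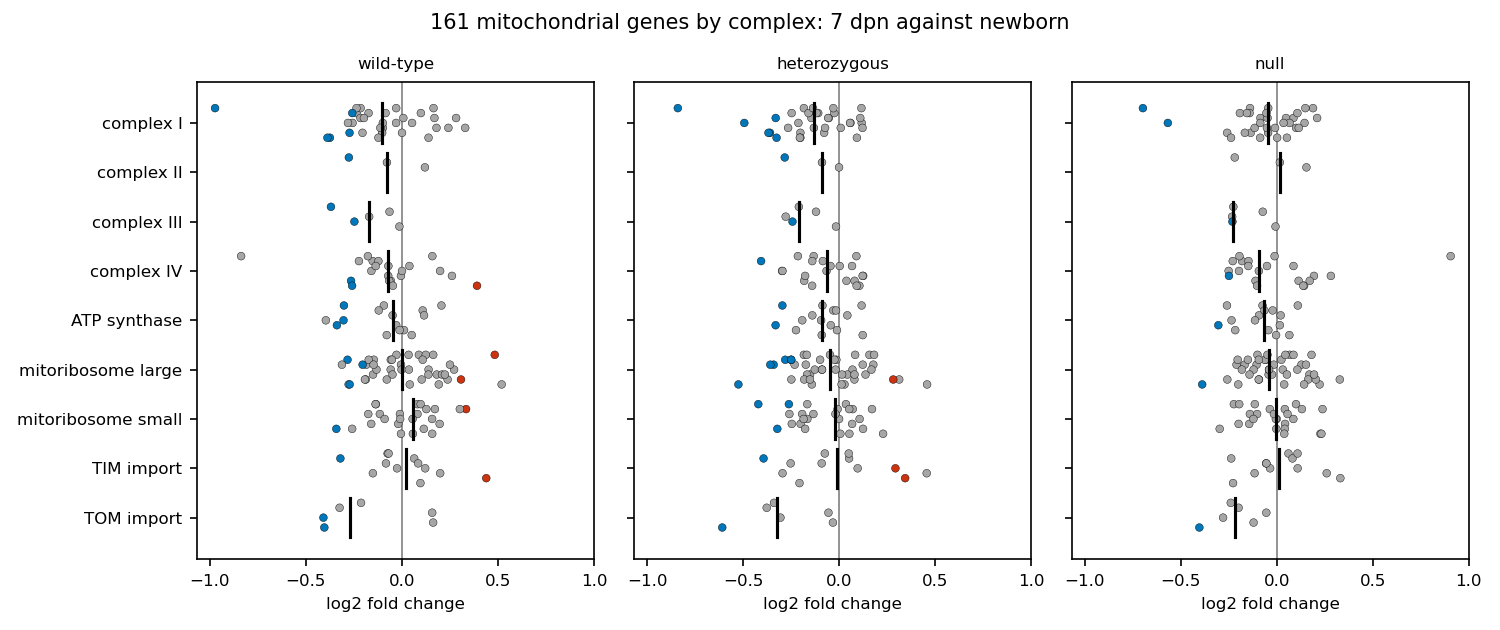
Log2 differences of 7 dpn against newborn ovaries (x axis) of the 161 genes, 1 point a gene, by complex or function (y axis, TIM and TOM standing for inner and outer membrane import), in wild-type, heterozygous and null ovaries, with genes called higher in red, called lower in blue and a bar at each median. The bars of complex III and outer membrane import lie farthest to the left, between -0.32 and -0.17, and blue points outnumber red ones in each genotype.

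Other nuclear genes of mitochondrial function were examined in lists by role. Of 16 regulators of mitochondrial biogenesis measured, 2 rose in 7 dpn null against wild-type ovaries, beside 2.77% of all probes, the share that the lists below are read against too. With these few genes nothing is read from the counts. *Esrra*, estrogen-related receptor alpha, had log2 ratios of -0.14 and -0.09 in null, -0.52 and -0.41 in heterozygous and -0.62 and -0.61 in wild-type ovaries. Both null arrays were highest, and the difference from wild-type was 0.50 (SE 0.10, adjusted p = 0.0182). Its coactivator *Ppargc1b* was at 0.50 as well (SE 0.12, adjusted p = 0.0368), whereas *Ppargc1a*, *Nrf1* and *Tfam* were at -0.24, 0.18 and 0.11 (adjusted p = 0.382, 0.496 and 0.666). The list's median was 0.11 log2 units, beside 0.015 over all probes.

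Among 12 carriers and dynamics genes, *Vdac3*, an outer membrane channel, had log2 ratios of 1.66 and 1.56 in 7 dpn null, 1.10 and 1.14 in heterozygous and 1.01 and 1.12 in wild-type ovaries. It rose against both, by 0.54 (SE 0.09, adjusted p = 0.00539) and 0.48 (SE 0.09, adjusted p = 0.0176), and in newborn null against wild-type ovaries by 0.41 (SE 0.07, adjusted p = 0.0171). Its newborn values of 1.73 to 1.79 in null lay above the 1.17 to 1.49 of wild-type ovaries, and without newborn wild-type array 1 the newborn difference was 0.32 (adjusted p = 0.0116). In the translation list, 2 of 10 genes rose at 7 dpn in null against wild-type ovaries: *Mrrf*, the ribosome recycling factor, by 0.52 (adjusted p = 0.0215), and *Mtif2*, an initiation factor, by 0.43 (adjusted p = 0.0371). *Uqcc2*, an assembly factor of complex III, was the 1 of 10 assembly and electron carrier genes that rose, by 0.45 (adjusted p = 0.00456). Of 14 genes of pyruvate oxidation and the citric acid cycle, *Pdhx*, a structural part of pyruvate dehydrogenase, fell by 0.33 (adjusted p = 0.0343), beside 2.76% of all probes, and none rose.

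With age, *Gabpb1*, a subunit of the ETS factor GABP, fell in all 3 genotypes, by 0.45 (adjusted p = 0.0158) in wild-type, 0.54 (adjusted p = 0.00606) in heterozygous and 0.40 (adjusted p = 0.0454) in null ovaries. Its log2 ratios were 1.34 to 1.77 in newborns and 0.91 to 1.34 at 7 dpn. *Gabpa*, the DNA-binding subunit, fell by 0.43 (adjusted p = 0.0178) in wild-type and 0.63 (adjusted p = 0.00247) in heterozygous ovaries and was at -0.24 (adjusted p = 0.236) in null ovaries. Without newborn wild-type array 1, the wild-type differences were -0.39 (adjusted p = 0.0255) for *Gabpb1* and -0.38 (adjusted p = 0.0270) for *Gabpa*. Without newborn wild-type array 2 they were -0.45 (adjusted p = 0.0391) and -0.37 (adjusted p = 0.0869), so the wild-type call of *Gabpa* ended. *Cyct*, the testis form of cytochrome c, fell by 1.30 (adjusted p = 0.00134) in heterozygous and 1.14 (adjusted p = 0.00645) in null ovaries and was at -0.58 (adjusted p = 0.0543) in wild-type ovaries. Of the 76 cytosolic ribosomal proteins measured, given for contrast with the mitochondrial ribosome, 14 rose and 2 fell with age in wild-type ovaries, beside 4.80% of all probes higher and 3.81% lower. In 7 dpn null against wild-type ovaries 2 rose and 2 fell, beside 2.77% and 2.76%.

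The same comparisons were run on the red channel, which held the same reference RNA on every array and should carry no difference. No member was called in it in any comparison with limma, and in 7 dpn null against wild-type 3 members had an unadjusted p under 0.05 after quantile normalisation and 1 after median centring. Its median over the set was above 0 with age: 0.036 in wild-type, 0.011 in heterozygous and 0.028 in null ovaries after quantile normalisation. After median centring it was 0.101, 0.075 and 0.095. The ratios had set medians of -0.05, -0.09 and -0.04, and the part of the reference in them was not tested. A fit of 1 channel calls few genes: on the ovary channel alone 4 of 47 named calls were kept. The absence of calls in the red channel thus shows little. A further 41 probes measured members other than through the probe used. In 7 dpn null against wild-type, 30 of them had the sign of the probe used and 1 was called, and with age 34, 32 and 34 had it in wild-type, heterozygous and null ovaries, with 3, 7 and 1 called.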

How the data were processed

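Spot values were read from the scanner output of 15 arrays that the authors deposited, as background-subtracted and dye-normalised processed signal intensity of both channels, made with Agilent Feature Extraction A.7.5.1 per the file headers. The deposited series table holds processed signal values of unstated scaling (column medians 190.0 to 215.4) and was used as an alternative. The labels name an Agilent linear amplification labelling kit, whereas the methods state that 7 dpn RNA was not amplified. The label for age reads birth on 7 dpn samples, so age was taken from the title, and all 6 of those are used although the methods count fewer.

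Control spots and outlier flags (7 to 100 per array) were left out and spots of a probe averaged. Log2 ratios of ovary to reference were normalised within each array by loess (span 0.01) against the mean of all 15 arrays, and fitted with limma 3.58.1 in R 4.3.3 on 6 groups with all arrays. The methods name a local mean of that span on background-subtracted data; a local line on the dye-normalised signals was used here, with the local mean as an alternative. Moderated p-values were adjusted by Benjamini-Hochberg over all probes (threshold 0.05). No source says that samples of a group were separate litters, so p-values measure the spread between these samples. Genes were named through RefSeq accessions, which 20657 probes carry and of which 15294 could be named. The rule for named genes took up to 10 called members in each direction, those with the lowest p where fewer than 10 were called within an age, and the tissue-restricted forms with their partners and complex II. The text gives some of these, names further called members, and chose the genes of the pathway lists after their values were seen. A called member is not reported here. Members and lists were chosen with earlier results of these data known. Scripts were tested on simulated data. Replicate numbers did not pair the samples. Alternatives were another background correction, median centring, a wider loess span, the ovary channel alone, the series table, a filter on dim probes, the mean over probes, arrays of 1 age, a replicate block, another threshold and each array left out. Figures used Python 3.11.15 with matplotlib 3.10.9.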

Additional observations from a re-analysis of the deposited data

How the results depend on the processing

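The values of the genes named by the rule were tallied over the alternatives, except for the other threshold. Changes of sign in uncalled values were not counted. Of the values tallied, 4384 stayed called or stayed uncalled, 219 lost the call, 30 gained one and 0 calls reversed. Of 47 calls among them, 47 were kept with the filter on dim probes or the local mean, 44 with the mean over probes, 42 with normexp background correction, 40 with loess span 0.3, 35 with median centring, 32 with the replicate block, 31 with the series table and 4 in the ovary channel alone, and of 9 calls between genotypes 2 were kept with arrays of the age compared. *Cox7a1* in 7 dpn null against wild-type stayed called in all 10 alternatives that kept every array it compares, with log2 differences of 1.81 to 2.09, and against heterozygous ovaries in 6 of 10. *Ndufa1* stayed called with age in 9 of 9 in wild-type and heterozygous and 8 of 9 in null ovaries (ovary channel alone: adjusted p = 0.0947, limma).

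In 7 dpn null against wild-type, the 7 calls became 4 with loess span 0.3, 1 in the ovary channel alone, 2 with arrays of that age, 4 with the replicate block and 0 at a threshold of 0.01, and the median became 0.057 with median centring and 0.090 in the ovary channel. In null against heterozygous, the 2 calls became 4 with normexp, 0 with median centring, the ovary channel, the series table or threshold 0.01, and 1 with arrays of that age or the replicate block. At birth, the median of null against wild-type became 0.080 in the ovary channel, that of heterozygous against wild-type 0.045 with median centring, 0.089 in the ovary channel and 0.036 with the series table, and that of null against heterozygous -0.0039 in the ovary channel and -0.0068 with the series table. With age in wild-type ovaries, the 25 calls became 2 in the ovary channel and 7 at threshold 0.01, and the median became -0.012 with median centring, 0.019 in the ovary channel and 0.0042 with the series table. In heterozygous ovaries, the 25 calls became 1 in the ovary channel, 16 with the series table and 13 at threshold 0.01. In null ovaries, the 7 calls became 0 in the ovary channel, 4 with the replicate block and 3 at threshold 0.01, and the median became 0.0024 with median centring, 0.028 in the ovary channel and 0.050 with the series table. The change of the heterozygous difference had a median of -0.098 in the ovary channel. The cause was not tested.

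Leaving out 1 array at a time gave 0 to 9 calls (5 without wild-type array 1) and medians of -0.0050 to 0.070 in 7 dpn null against wild-type, 0 to 1 and -0.070 to -0.018 in heterozygous against wild-type, and 0 to 3 and 0.070 to 0.096 in null against heterozygous. At birth it gave 0 to 7 and 0.021 to 0.051, 0 to 7 and -0.023 to 0.0078, and 0 to 1 and 0.025 to 0.048 for null against wild-type, heterozygous against wild-type and null against heterozygous. With age it gave 11 to 50 and -0.090 to -0.013 in wild-type, 9 to 26 and -0.104 to -0.056 in heterozygous, and 0 to 18 and -0.049 to -0.038 in null ovaries. For the change of the null and heterozygous differences it gave 0 to 3 and -0.024 to 0.032, and 0 to 1 and -0.101 to -0.0074. Wild-type calls with age became 50 without newborn array 1, 13 without newborn array 2, 12 without 7 dpn array 1 and 11 without 7 dpn array 2. Heterozygous calls became 14 and 20 without newborn arrays 2 and 3, and 11 and 9 without 7 dpn arrays 1 and 2. Null calls became 18 without newborn wild-type array 1, 4 without newborn null array 2, and 3 and 0 without 7 dpn null arrays 1 and 2. An arm left with 1 sample is assumed to vary like the other groups.

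Same-numbered samples had correlated deviations of -0.137 to -0.013 at 7 dpn and -0.171 to 0.143 at birth, so the replicate block pairs samples that share only a number. The crossed pairing of heterozygous and wild-type arrays at 7 dpn, the local mean in place of the local line and the fits without newborn wild-type array 1 in comparisons of other groups were chosen after seeing the data; the crossed pairing gave 0 calls. Extraction day as a block was not run because each day holds 1 age.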
